A study of Homo sapiens with 38 samples.

Results

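The transcripts followed here come from 34 genes of hypoxia and glycolysis, a named set that was looked up by symbol among the 43412 genes of the count table. The set was chosen with earlier results of these data known. The shares of all genes given beside its counts therefore describe those counts and do not test them. All 34 were found, and all 34 passed the filter on low counts. The set was grouped by role and holds 13 glycolytic enzymes and 2 glucose transporters (SLC2A1 and SLC2A3). Another 4 genes, of glycolytic flux and pyruvate fate, are PFKFB3, PFKFB4, LDHA and PDK1. A group of 5 named oxygen sensors and chromatin regulators holds EGLN1, EGLN3, KDM3A, MXI1 and ANKRD37. A group of 7 named secreted factors, pH and matrix holds STC1, VEGFA, ADM, CA9, P4HA1, P4HA2 and the cytoplasmic NDRG1. The rest are 2 mitophagy genes and the noncoding RNA MIR210HG, host of the microRNA miR-210. They were measured by total RNA sequencing in the established human embryonic stem cell line H9, in which WNT signalling was switched on in 3 ways.

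When oxygen is scarce, the prolyl hydroxylases EGLN1 and EGLN3 no longer mark the HIF alpha subunits for destruction through VHL. HIF then pairs with ARNT and binds short DNA elements with the core letters ACGTG or GCGTG, and many of its targets are genes of glucose uptake, glycolysis, blood vessel growth and matrix processing. Several targets feed back on the system, among them EGLN1 and EGLN3 themselves and PDK1, a kinase that turns off pyruvate dehydrogenase and so keeps pyruvate out of the mitochondrion. Human pluripotent stem cells make much of their ATP by glycolysis, and many glycolytic enzymes are also abundant in cells that have ample oxygen.

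All cells were H9. The CHIR arm received 10 µM CHIR99021, an inhibitor of GSK3, the kinase that marks beta-catenin for destruction, and cultures were taken at 0, 8, 16, 24, 48 and 72 h. In the Wnt3a arm, the recombinant ligand was given at 240 ng/ml, and cultures were taken at 0, 8, 24, 48, 72, 96 and 120 h. The bcat arm used an H9 line with a stably integrated, constitutively active beta-catenin under doxycycline at 1 µg/ml, taken at 0 (uninduced), 8, 16, 24, 48 and 72 h, and the labels do not say whether that line is 1 clone. All cultures were seeded at full confluency, and with the agent they were moved from mTeSR1 to RPMI1640 with B27 lacking vitamin A, renewed daily. No group received the new medium alone, so the agent, the medium and the time since seeding cannot be told apart.

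Each of the 19 groups had 2 libraries. Both Wnt3a 72 h columns were identical in all 43412 genes and were counted as 1 sample, which left 37 libraries. Depth was 2.45 M counts in Wnt3a 0 h replicate 1, 65.7 M in Wnt3a 0 h replicate 2, and 18.99 M at the median. Ribosomal RNA took 34.1% of bcat 0 h replicate 1, 60.4% of bcat 24 h replicate 1 and 60.3% of bcat 48 h replicate 2, against a median of 5.13%. Mitochondrial transcripts made up 0.369% to 1.55% of the bcat libraries at every hour, against 7.68% to 14.7% in the CHIR arm and 6.77% to 16.6% in the Wnt3a arm, so levels in the bcat arm against the other arms cannot be told apart from this difference between libraries. The titles call the replicates biological without saying what was repeated, and p-values measure the spread between these libraries. In the cultures labelled Wnt3a 24 h, AXIN2, a direct WNT target, lay under both 0 h libraries, at 12.7 and 12.7 against 18.4 and 21.6 CPM, although it was higher than at 0 h after 8 h and 48 h. In bulk RNA, fewer cells of a type and less RNA per cell cannot be told apart.

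Stretches upstream of the RefSeq start sites (GRCh38.p14) of 8 members are shown as examples whose upstream DNA holds the HIF core letters. MIR210HG, PFKFB4, HK2, EGLN1, BNIP3 and ANKRD37 changed between groups as described below, and PGK1 and LDHA are abundant enzymes. Each reads 5′ to 3′ on the strand of its gene, with ACGTG or GCGTG on either strand in capitals. Where a gene had several start sites, the window with the most matches was taken.
MIR210HG: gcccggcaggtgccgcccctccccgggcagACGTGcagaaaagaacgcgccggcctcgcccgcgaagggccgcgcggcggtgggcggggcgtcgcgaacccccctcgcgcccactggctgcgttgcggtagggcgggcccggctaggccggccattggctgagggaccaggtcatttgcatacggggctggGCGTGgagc
PFKFB4: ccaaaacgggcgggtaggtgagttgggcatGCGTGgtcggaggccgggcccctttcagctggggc
HK2: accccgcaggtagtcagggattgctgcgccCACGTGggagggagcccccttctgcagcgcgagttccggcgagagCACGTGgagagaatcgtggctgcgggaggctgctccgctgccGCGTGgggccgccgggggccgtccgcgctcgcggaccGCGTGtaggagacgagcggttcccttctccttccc
EGLN1: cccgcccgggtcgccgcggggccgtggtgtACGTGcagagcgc
BNIP3: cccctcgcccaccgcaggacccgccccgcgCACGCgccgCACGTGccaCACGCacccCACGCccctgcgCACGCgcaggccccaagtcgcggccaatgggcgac
ANKRD37: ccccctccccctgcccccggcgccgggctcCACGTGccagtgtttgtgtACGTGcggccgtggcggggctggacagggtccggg
PGK1: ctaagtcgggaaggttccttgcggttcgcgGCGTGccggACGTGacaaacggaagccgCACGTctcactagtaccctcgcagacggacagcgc
LDHA: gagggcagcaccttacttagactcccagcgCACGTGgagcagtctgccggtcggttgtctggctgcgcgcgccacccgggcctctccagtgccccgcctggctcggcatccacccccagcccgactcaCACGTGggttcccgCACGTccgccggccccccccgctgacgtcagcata
The stretches were taken among the members that hold such a match, with 30 flanking bases, and they lie at chr11:568458-568657 (minus strand) for MIR210HG, chr3:48556935-48556999 (minus) for PFKFB4, chr2:74834946-74835134 (plus) for HK2, chr1:231422288-231422330 (minus) for EGLN1, chr10:131981993-131982096 (minus) for BNIP3, chr4:185396649-185396732 (plus) for ANKRD37, chrX:78104007-78104099 (plus) for PGK1 and chr11:18394348-18394524 (plus) for LDHA.

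Promoter windows were found for 29 of the 34 members. In the 250 bases before the start, searched on both strands, ACGTG was present in 19 of the 29 (65.5%), against 21.7% of 27305 genes in the same RefSeq table. GCGTG was present in 16 (55.2%), against 36.2% of all genes. The 6-base E-box CACGTG, which contains ACGTG on both strands, was present in 8 (27.6%), against 7.73%. Either core was present in 25 of 29 members (86.2%) and in 47.4% of all genes. Genes with several start sites have more windows in which to match, and per window the shares for either core were 68.8% of 48 and 43.2% of 35116. Per window ACGTG was present in 45.8% against 18.5%, CACGTG in 16.7% against 6.34%, and GCGTG in 39.6% against 32.2%, a smaller difference than per gene. A match describes letters and is not a binding site. The mature miRNA hosted by MIR210HG was not measured in these libraries, and its sequence, with the seed at bases 2 to 8 in capitals, is given for reference.
hsa-miR-210-3p: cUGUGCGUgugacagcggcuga

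Before any treatment, the arms already differed in these genes. The CHIR 0 h and Wnt3a 0 h cultures carry the same labels, H9 with no treatment, yet 29 of 34 members were higher at CHIR 0 h (edgeR quasi-likelihood test, Benjamini-Hochberg adjusted p under 0.05 over all 24304 genes tested, here called), where 6.75% of all genes tested were called higher, and the other 5 were not called. In the uninduced bcat cultures 31 of 34 were higher than at Wnt3a 0 h, where the share of all genes called higher was 12%. Such shares are larger among genes with more counts. Of the 11924 genes with at least 10 CPM in 2 libraries, 11.9% and 23.2% were called higher in these comparisons. The median log2 difference over the 34 members was 0.89 and 1.12, and over all genes tested it was 0.04 and -0.03. Both comparisons use the same Wnt3a 0 h libraries. Without the 4 libraries with low depth or much ribosomal RNA, 20 and 28 members were called higher, where 3.19% and 7.28% of the 24588 genes then tested were.

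MIR210HG had 0.97 and 3.52 CPM (TMM-scaled counts on a common library size) in the 2 Wnt3a 0 h libraries, 14.9 and 16.8 in those of CHIR and 17.1 and 23.2 in those of bcat. The Wnt3a libraries were the lowest and overlapped neither other group, and the fitted differences were 2.40 ± 0.35 (SE, adjusted p = 3.21e-05) and 2.76 ± 0.36 (SE, adjusted p = 1.67e-06). EGLN1, the main oxygen-sensing hydroxylase, had 7.76 and 20.9 CPM at Wnt3a 0 h, 64.3 and 57.5 in the CHIR and 60.9 and 99.2 in the bcat cultures of that hour. It was thus 3.57-fold higher in the CHIR cultures (adjusted p = 1.68e-05) and 4.78-fold higher in the bcat cultures (adjusted p = 2.91e-07). The wide spread between the Wnt3a replicates did not reach the lowest library of either other arm.

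BNIP3, which tags mitochondria for removal, had 57.9 and 81.1 CPM at Wnt3a 0 h, 251 and 226 in the CHIR and 254 and 334 in the bcat cultures of that hour. P4HA1, a collagen prolyl hydroxylase subunit, had 37.8 and 57.7, 183 and 177 and 229 and 328 CPM in the same order. Both were low in every Wnt3a 0 h library and high in every other one, with log2 differences of 1.73 and 1.85 for CHIR and 2.04 and 2.48 for bcat. ADM, the vasodilator peptide adrenomedullin, had 12.9 and 16.6 CPM at Wnt3a 0 h, 84.3 and 96.4 in the CHIR and 26.2 and 46.1 in the bcat cultures of that hour, and it differed most of all members in CHIR (log2 difference 2.54 ± 0.35 SE, adjusted p = 6.43e-05). MXI1, a MAX partner that opposes MYC, had 6.47 and 9.67, 37.2 and 32.9 and 29.4 and 39.4 CPM, with log2 differences of 1.98 and 1.98. ADM and MXI1 were apart between Wnt3a and each other arm.

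The scarcer members ANKRD37, an ankyrin repeat protein, and NDRG1, a stress-induced cytoplasmic protein, also differed. ANKRD37 had 0.647 and 1.47 CPM at Wnt3a 0 h, 4.58 and 4.38 in the CHIR and 7.06 and 5.67 in the bcat cultures of that hour (log2 differences 1.76 and 2.24, adjusted p = 0.00351 and 2.11e-04). NDRG1 had 2.26 and 0.881, 4.53 and 2.07 and 7.35 and 6.85 CPM (log2 differences 1.59 and 2.71, adjusted p = 0.0321 and 2.11e-04), and its Wnt3a and CHIR libraries overlapped. The group of glycolytic enzymes, which holds PGK1 and not LDHA, had a smaller median difference, given by role below. PGK1, which makes the first ATP of glycolysis, had 790.4 and 1046 CPM at Wnt3a 0 h, 1704 and 1644 in the CHIR and 1691 and 2048 in the bcat cultures of that hour, and LDHA, which turns pyruvate into lactate, had 519 and 693, 1269 and 1253 and 1373 and 1723. The Wnt3a libraries of both genes lay under all those of the other arms, and the log2 differences from Wnt3a were 0.86 and 1.02 for PGK1 and 1.05 and 1.35 for LDHA.

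By role, the median log2 difference of CHIR 0 h from Wnt3a 0 h was 1.76 for the 5 genes grouped as oxygen sensors and chromatin regulators. The median was 1.32 for the 2 mitophagy genes, 1.10 for the 2 transporters and 0.52 for the 13 enzymes, of which 12 were called. The exceptions at CHIR 0 h were the enzyme PFKL, PDK1, EGLN3, P4HA2 and CA9, a surface carbonic anhydrase. CA9 reached its highest value of all 37 libraries, 1.28 CPM, at bcat 8 h, and its change from 0 h was called in no arm at any hour. Between CHIR 0 h and bcat 0 h 7 members were lower in CHIR and 1 higher, where all genes gave 6.06% and 9.6%. The lower ones included STC1, a secreted glycoprotein, at 68.7 and 64.7 against 157 and 165 CPM (log2 difference -1.28 ± 0.18 SE, adjusted p = 4.88e-06), and the higher one was ADM, at 84.3 and 96.4 against 26.2 and 46.1 CPM (log2 difference 1.27 ± 0.33 SE, adjusted p = 0.0113). With DESeq2 size factors, or with those 2 arms alone in the fit, 11 were called lower, and with DESeq2 or at least 10 CPM required 12 were. Without bcat 0 h replicate 2 the count called lower was 4, and without CHIR 0 h replicate 2 ADM was not called.

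**Figure D1:**
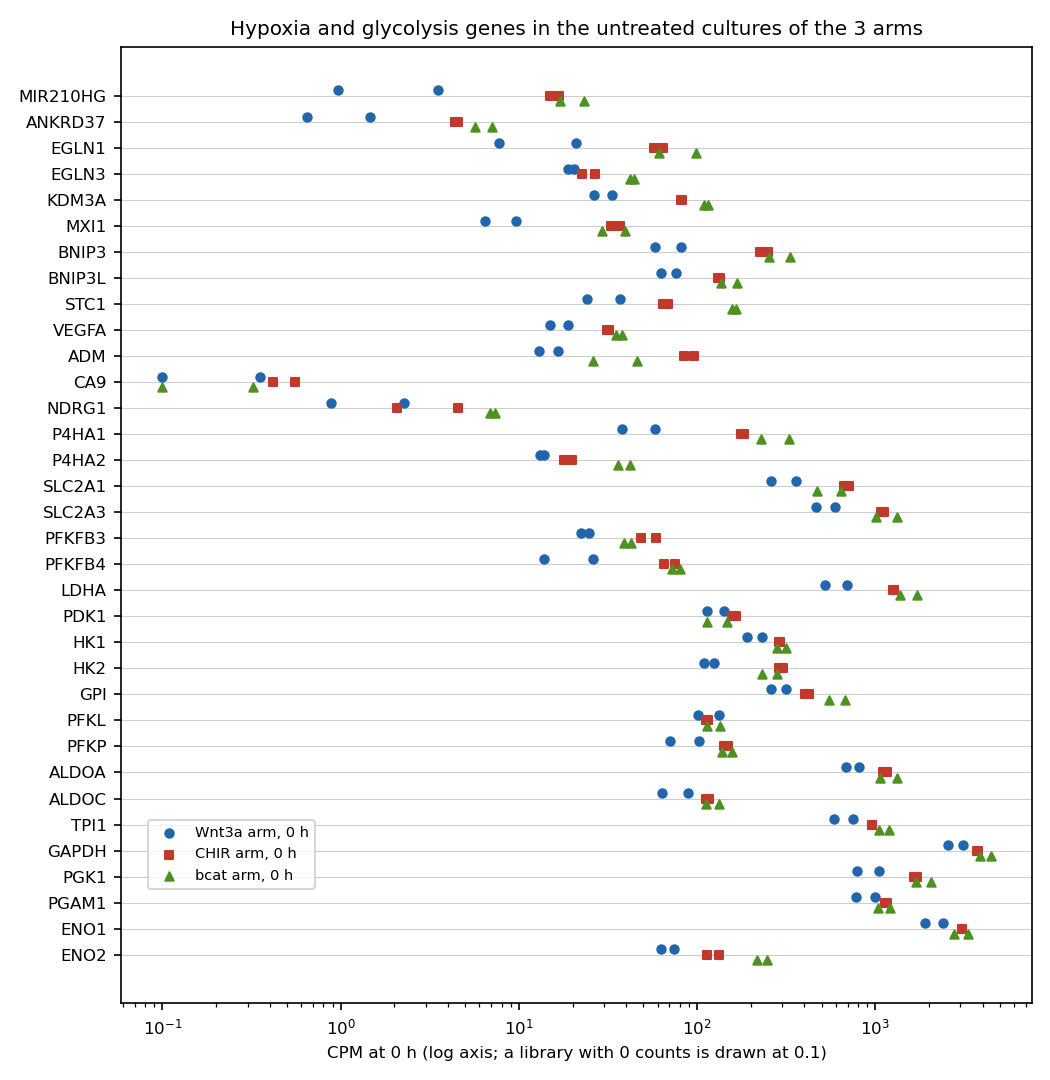
CPM on a log axis of the 34 genes in each of the 2 untreated libraries per arm (blue circles Wnt3a, red squares CHIR, green triangles bcat). Blue points lie to the left in nearly every row, with PFKL, PDK1 and CA9 among the rows where arms overlap or nearly do.

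Per kilobase of the longest annotated transcript, GAPDH was the most abundant member in all 3 arms at 0 h, with 1508 CPM per kb at Wnt3a 0 h, 1999 at CHIR 0 h and 2212 at bcat 0 h. ENO1, the main enolase, came next with 917, 1306 and 1296 CPM per kb. MIR210HG had 1.14, 8.08 and 10.2, and CA9 was the least abundant with 0.109, 0.299 and 0.0992. The members thus covered a wide range of abundance. In the CHIR and in the bcat arm, 33 of 34 fitted log2 differences from Wnt3a 0 h were above 0. By these means PFKL in CHIR (39.2 against 40.0 CPM per kb) and CA9 in bcat were lower than in Wnt3a.

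After 8 h the genes that had been high came down. In the CHIR arm 27 of 34 members fell against CHIR 0 h, where 11.7% of all genes were called lower, and the other 7 (PFKP, GAPDH, SLC2A3, VEGFA, ADM, CA9 and NDRG1) were not called. In the bcat arm 30 fell, where 8.01% of all genes were called lower, and SLC2A3, ADM, CA9 and NDRG1 were not called. Of the 11924 genes with at least 10 CPM in 2 libraries, 19.8% were called lower at CHIR 8 h and 19.9% at bcat 8 h. The CHIR and bcat arms share no library. All 27 members that fell with CHIR99021 also fell with doxycycline, which is 100% of the first list and 90% of the second. Over all genes tested, 40.7% of those lower with CHIR99021 were lower with doxycycline, and 59.3% of those lower with doxycycline were lower with CHIR99021. Of the members, GAPDH, PFKP and VEGFA were called in bcat and not in CHIR. The median log2 change over the members was -0.88 and -0.81.

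MIR210HG went from 14.9 and 16.8 CPM to 0.809 and 0.664 with CHIR99021, a 21.1-fold fall (log2 change -4.40 ± 0.38 SE, adjusted p = 1.33e-09). In the bcat arm it went from 17.1 and 23.2 to 5.94 and 3.24 CPM (log2 change -2.08 ± 0.33 SE, adjusted p = 3.66e-05). Treated and untreated libraries were apart in both arms, and CHIR 8 h held the lowest mean of MIR210HG of all 19 groups. STC1 fell from 68.7 and 64.7 to 6.76 and 4.98 CPM in the CHIR arm (log2 change -3.49 ± 0.20 SE, adjusted p = 8.79e-14) and from 157 and 165 to 13.0 and 11.2 in the bcat arm (log2 change -3.72 ± 0.20 SE, adjusted p = 4.67e-14). The 8 h libraries of STC1 lay under the 0 h libraries in each arm, and those of CHIR lay under those of bcat at both hours.

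PFKFB4, which sets the level of fructose 2,6-bisphosphate and so the pace of phosphofructokinase, fell from 75.3 and 65.2 to 8.60 and 9.01 CPM (log2 change -2.997 ± 0.20 SE, adjusted p = 5.17e-12) with CHIR99021. It fell from 72.0 and 79.7 to 13.8 and 10.5 CPM (log2 change -2.62 ± 0.21 SE, adjusted p = 1.67e-10) in the bcat arm. HK2, the inducible hexokinase that traps glucose in the cell, went from 304 and 289 to 44.0 and 45.5 (log2 change -2.73 ± 0.17 SE, adjusted p = 3.88e-13) and from 231 and 280.4 to 59.3 and 52.3 CPM (log2 change -2.20 ± 0.16 SE, adjusted p = 4.70e-11). HK2 fell by far more than its constitutive relative HK1, whose changes were -1.07 and -1.09, and no 8 h library of either gene overlapped its 0 h group. MXI1 went from 37.2 and 32.9 to 6.20 and 6.88 (log2 change -2.42 ± 0.21 SE, adjusted p = 6.68e-10) and from 29.4 and 39.4 to 6.76 and 7.86 CPM (log2 change -2.28 ± 0.22 SE, adjusted p = 8.66e-09). EGLN1 went from 64.3 and 57.5 to 14.5 and 13.5 (log2 change -2.12 ± 0.24 SE, adjusted p = 2.82e-07) and from 60.9 and 99.2 to 24.2 and 18.5 CPM (log2 change -1.91 ± 0.24 SE, adjusted p = 2.28e-06). All 5 genes grouped as oxygen sensors and chromatin regulators fell in both arms.

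The abundant enzymes fell by less. With CHIR99021 11 of 13 were called lower with a median of -0.51, and in the bcat arm all 13 with a median of -0.59. PGK1 went from 1704 and 1644 to 840.1 and 829 CPM in the CHIR arm (log2 change -1.004 ± 0.12 SE, adjusted p = 1.41e-07) and from 1691 and 2048 to 978 and 1127 in the bcat arm (log2 change -0.83 ± 0.12 SE, adjusted p = 4.05e-06). SLC2A1, the basal glucose transporter GLUT1, went from 714 and 665 to 333 and 314 (log2 change -1.09 ± 0.24 SE, adjusted p = 0.00199) and from 474 and 645 to 191 and 178 CPM (log2 change -1.60 ± 0.25 SE, adjusted p = 6.01e-05). SLC2A3, the high-affinity neuronal-type transporter GLUT3, was not called in either arm, with 1119 and 1078 against 1176 and 1125 CPM and 1003 and 1318 against 921 and 883 CPM.

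In the Wnt3a arm, which started low, 6 members fell at 8 h, where 1.18% of all genes were called lower, and PDK1 rose, where 2.28% were called higher. Those that fell were STC1 from 24.3 and 37.1 to 9.07 and 8.47 CPM (log2 change -1.89 ± 0.19 SE, adjusted p = 5.66e-08), HK2 from 109 and 124 to 49.2 and 56.9 (log2 change -1.14 ± 0.16 SE, adjusted p = 1.69e-05), PFKFB4 from 13.9 and 25.9 to 8.42 and 11.9 (log2 change -1.10 ± 0.20 SE, adjusted p = 7.80e-04), MIR210HG, KDM3A and ENO2. STC1, HK2 and PFKFB4 did not overlap between 0 h and 8 h. MIR210HG had 0.97 and 3.52 CPM at 0 h and 1.53 and 0.676 at 8 h, so its groups overlapped, and its change of -1.56 (adjusted p = 0.0177) turned to 0.065 without Wnt3a 0 h replicate 2. Without that library, which left the shallowest one alone at 0 h, 2 members were called lower. PGK1 at 790.4 and 1046 against 972 and 901 CPM and LDHA at 519 and 693 against 590.0 and 556 were not called, and their groups overlapped.

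The test of the difference between arms compared the 8 h change in 1 arm with that in another. Against the change with Wnt3a, 19 members changed further downward in the CHIR arm, where 3.28% of all genes did, and 19 in the bcat arm, where 2.62% did. With at least 10 CPM required in 2 libraries, those shares of genes were 7.21% and 9.45%. The differences rest on 0 h as much as on 8 h, and both share the Wnt3a libraries. EGLN1 gave -2.02 ± 0.34 (SE, adjusted p = 7.74e-04) for CHIR minus Wnt3a and -1.81 ± 0.34 (SE, adjusted p = 0.00213) for bcat minus Wnt3a. PFKFB4 gave -1.90 ± 0.28 (SE, adjusted p = 1.04e-04) and -1.52 ± 0.29 (SE, adjusted p = 0.00149). MIR210HG gave -2.84 ± 0.56 (SE, adjusted p = 0.00243) for CHIR, and for bcat -0.52 ± 0.52 (SE, adjusted p = 0.667), which was not called. Between CHIR and bcat 2 members were called lower and 1 higher, where all genes gave 2.08% and 0.617%. MIR210HG and KDM3A, a histone H3K9 demethylase, fell further with CHIR99021 (-2.31 and -0.81, adjusted p = 0.00994 and 0.0244), and VEGFA, the main vessel growth factor, differed upward (0.92, adjusted p = 0.0236). These 3 calls were fragile. Without CHIR 8 h replicate 1 or without bcat 8 h replicate 1 no member was called in either direction, and the higher call was also lost without either CHIR 0 h library, CHIR 8 h replicate 2, bcat 0 h replicate 2 or bcat 8 h replicate 2.

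**Figure D2:**
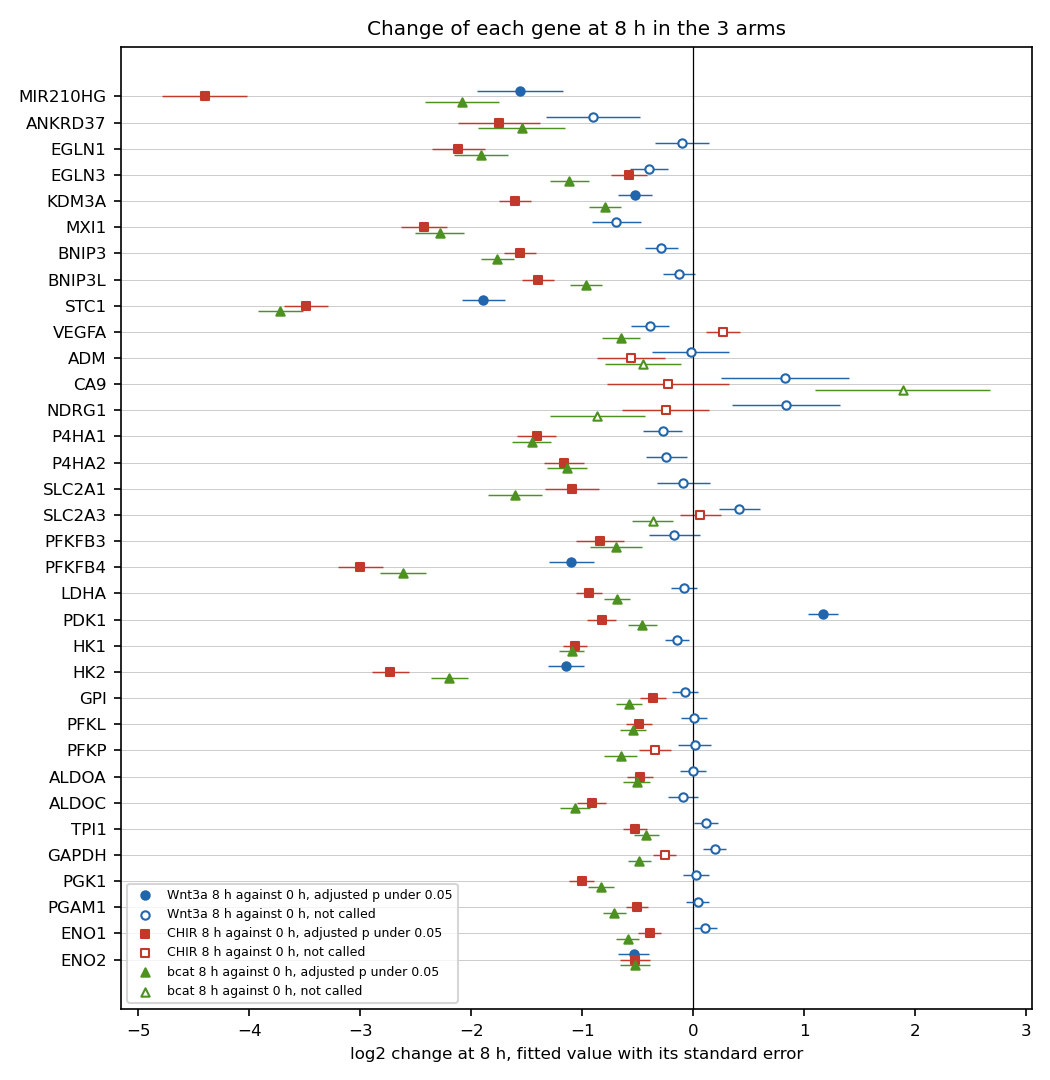
Fitted log2 change from 0 h to 8 h of each gene with its standard error in the CHIR (red squares), bcat (green triangles) and Wnt3a (blue circles) arms, filled where adjusted p was under 0.05. Red and green points lie left of 0 for most genes, from -4.40 for MIR210HG with CHIR99021, while most Wnt3a points are open and near 0, with PDK1 at 1.17.

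Compared directly at 8 h, the arms were much closer than at 0 h. CHIR 8 h against Wnt3a 8 h gave 3 members lower and 6 higher, where 6.09% and 4.37% of all genes were called. The median log2 difference over the members was 0.07, after 0.89 at 0 h. For bcat against Wnt3a the 8 h counts were 4 lower and 10 higher, where all genes gave 8.74% and 8.12%, with a median of 0.37 after 1.12. These comparisons of levels at the same hour were added after the values had been seen. HK2 had 44.0 and 45.5 CPM at CHIR 8 h, 59.3 and 52.3 at bcat 8 h and 49.2 and 56.9 at Wnt3a 8 h, and the 3 groups differed by less than they had at 0 h. The summed CPM of all 34 members was 17400.0 to 17697 at CHIR 0 h, 17373 to 20828 at bcat 0 h and 9829.6 to 12419 at Wnt3a 0 h, and 12082 to 12106, 12018 to 12114 and 11778 to 12055 at 8 h. Most of that sum comes from the abundant enzymes.

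From 8 h onward the arms parted again. In the CHIR arm 8 members were lower and 9 higher at 16 h than at 8 h, where 5.52% and 5.83% of all genes were called. From 16 h to 24 h 21 members rose, where 3.9% of all genes did, and the other 13 were not called. MIR210HG had 0.809 and 0.664 CPM at 8 h, 3.65 and 3.74 at 16 h, 9.76 and 14.0 at 24 h and 13.1 and 15.3 at 48 h, and it rose both from 8 to 16 h (log2 change 2.30 ± 0.40 SE, adjusted p = 2.84e-04) and from 16 to 24 h (log2 change 1.70 ± 0.33 SE, adjusted p = 0.00148). By 24 h its libraries were near the 0 h values of 14.9 and 16.8, and the change from 0 h was not called (log2 change -0.40 ± 0.30 SE, adjusted p = 0.457). BNIP3 had 106 and 118 CPM at 16 h and 349.6 and 372 at 24 h (log2 change 1.68 ± 0.15 SE, adjusted p = 6.29e-09), above both 0 h libraries. EGLN1 had 25.2 and 28.9 and then 58.5 and 60.3 CPM (log2 change 1.13 ± 0.23 SE, adjusted p = 0.00275), which brought it back to its 0 h range.

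Against CHIR 0 h, 30 members were lower at 16 h, where 9.34% of all genes were. NDRG1, which had not been called at 8 h, had 3.10 and 2.28 CPM then and 0.893 and 0.363 at 16 h (log2 change -2.53 ± 0.50 SE, adjusted p = 6.14e-04 from 0 h). SLC2A1 had 169.9 and 195 CPM at 16 h (log2 change -1.92 ± 0.25 SE, adjusted p = 6.78e-06 from 0 h), its lowest values in the CHIR arm. At 24 h 14 were lower and 2 (PDK1 and BNIP3) higher, where all genes gave 8.61% and 5.91%. Leaving out CHIR 0 h replicate 1 gave a lower count of 7 at 24 h, leaving out CHIR 0 h replicate 2 gave 8 lower and 1 higher, and leaving out CHIR 24 h replicate 1 gave 6 lower. At 48 h 10 were lower and 8 higher, where all genes gave 18.1% and 15.7%. PFKFB4 had 141 and 133 CPM at 48 h, above its 0 h values of 75.3 and 65.2 (log2 change 0.97 ± 0.18 SE, adjusted p = 8.92e-05). P4HA2, a second collagen prolyl hydroxylase subunit, had 48.2 and 47.7 CPM against 19.8 and 17.8 at 0 h (log2 change 1.35 ± 0.17 SE, adjusted p = 1.65e-07), and P4HA1 314 and 297 against 183 and 177 (log2 change 0.76 ± 0.17 SE, adjusted p = 6.53e-04). All 3 were highest at 48 h among the CHIR times and did not overlap their 0 h groups. NDRG1, VEGFA, TPI1, BNIP3 and PDK1 were the other members called higher.

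The return was not general. HK1, HK2, ALDOC, PGK1 and EGLN3, 5 of the 34 members, were lower than CHIR 0 h at each of the 5 later times, as were 2.23% of all genes tested. Those 5 tests share the CHIR 0 h libraries and are not independent. HK2 had 117 and 122 CPM at 48 h and 81.1 and 75.2 at 72 h, always under its 0 h libraries (log2 change -1.92 ± 0.16 SE, adjusted p = 6.73e-11 at 72 h). PFKP, the platelet-type phosphofructokinase, went from 149 and 141 CPM at 0 h to 41.7 and 46.2 at 72 h (log2 change -1.73 ± 0.15 SE, adjusted p = 1.82e-10), whereas its liver-type relative PFKL had 131 and 124 CPM against 116 and 113 and was not called. From 48 to 72 h 16 members fell and EGLN3 rose, where 5.49% and 7.51% of all genes were called. At 72 h 19 members were lower than at 0 h and PDK1 was higher, where all genes gave 13.4% and 11.5%.

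EGLN3 did not return with EGLN1. It had 22.7 and 26.7 CPM at CHIR 0 h, 8.56 and 10.3 at 24 h, 1.92 and 2.39 at 48 h and 5.13 and 4.73 at 72 h (log2 change -3.54 ± 0.20 SE, adjusted p = 4.60e-15 at 48 h). In the bcat arm it went from 42.1 and 44.0 at 0 h to 4.23 and 3.06 CPM at 72 h (log2 change -3.54 ± 0.21 SE, adjusted p = 2.35e-14). In the CHIR and bcat arms every library of EGLN3 after 0 h lay under the 0 h libraries of its arm, while at 48 h EGLN1 had 67.3 and 57.6 CPM in the CHIR arm and 68.1 and 56.6 in the bcat arm. In the Wnt3a arm EGLN3 was called lower at 3 of the 6 later times. ADM fell further still with CHIR99021, from 84.3 and 96.4 CPM at 0 h to 18.4 and 21.4 at 24 h, 3.47 and 2.45 at 48 h and 1.56 and 2.25 at 72 h (log2 change -5.67 ± 0.42 SE, adjusted p = 6.17e-10). In the bcat arm ADM had 26.2 and 46.1 CPM at 0 h, 37.7 and 38.8 at 24 h and 6.61 and 7.28 at 72 h, and it was called lower at 72 h (log2 change -2.44 ± 0.39 SE, adjusted p = 5.13e-05).

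In the bcat arm 10 members rose from 8 to 16 h, where 3.61% of all genes did, and the others were not called. They were MIR210HG, ANKRD37, EGLN1, MXI1, BNIP3, BNIP3L, STC1, HK2, PFKFB4 and PDK1, with HK2 as the sole one of the 13 glycolytic enzymes. MIR210HG had 11.6 and 13.2 CPM at 16 h after 5.94 and 3.24 at 8 h (log2 change 1.35 ± 0.32 SE, adjusted p = 0.00764). EGLN1 had 61.1 and 68.8 after 24.2 and 18.5 (log2 change 1.58 ± 0.24 SE, adjusted p = 8.47e-05), which lay inside its bcat 0 h range, whereas EGLN1 in the CHIR arm had 25.2 and 28.9 CPM at 16 h, under its 0 h range. The arms' levels at 16 h differed in 19 of 34 members, all lower with CHIR99021, where 10.3% of all genes were lower.

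Against bcat 0 h 22 members were lower at 16 h and PDK1 was higher, where 4.69% and 6.23% of all genes were called. Against the same libraries 24 members were lower at 24 h and PDK1 was higher, where all genes gave 5.95% and 6.87%. The PDK1 call was lost without bcat 0 h replicate 2 or bcat 24 h replicate 1. At 48 h 21 were lower and PDK1 was higher, where all genes gave 10.1% and 11.1%. At 72 h 26 were lower and PDK1 was higher, where all genes gave 13.6% and 13.6%. Of the 34 members, 20 were lower at each of the 5 bcat times, as were 1.93% of all genes tested, and these 20 include 12 of the 13 enzymes, all but PFKL. All 5 tests use the same bcat 0 h libraries, so the calls at the 5 times are not independent. ENO2, the neuronal enolase, went from 217 and 248 CPM at 0 h to 108 and 92.2 at 24 h and 88.5 and 78.2 at 72 h (log2 change -1.48 ± 0.14 SE, adjusted p = 1.37e-09). PFKP went from 138 and 156 CPM at 0 h to 30.2 and 26.5 at 48 h (log2 change -2.37 ± 0.16 SE, adjusted p = 1.30e-12), and ALDOC, the brain-type aldolase, from 112 and 133 to 36.1 and 37.3 at 24 h (log2 change -1.75 ± 0.14 SE, adjusted p = 1.41e-10). STC1 had 50.6 and 33.9 CPM at 24 h and 29.5 and 23.1 at 72 h, against 157 and 165 at 0 h (log2 change -2.61 ± 0.19 SE, adjusted p = 3.73e-12 at 72 h). None of these late libraries reached the 0 h range. P4HA1 had 96.9 and 78.5 CPM at 48 h, under its 0 h values of 229 and 328, in contrast to its rise with CHIR99021. The difference of these 48 h changes, CHIR minus bcat, was 2.43 ± 0.24 (SE, adjusted p = 1.99e-08) for P4HA1, 2.61 ± 0.25 (SE, adjusted p = 6.16e-09) for P4HA2 and 2.10 ± 0.25 (SE, adjusted p = 3.26e-07) for STC1. ADM gave -4.44 ± 0.52 (SE, adjusted p = 2.12e-06). In all 15 members differed upward and 3 downward at 48 h, where all genes gave 5.97% and 10.6%.

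**Figure D3:**
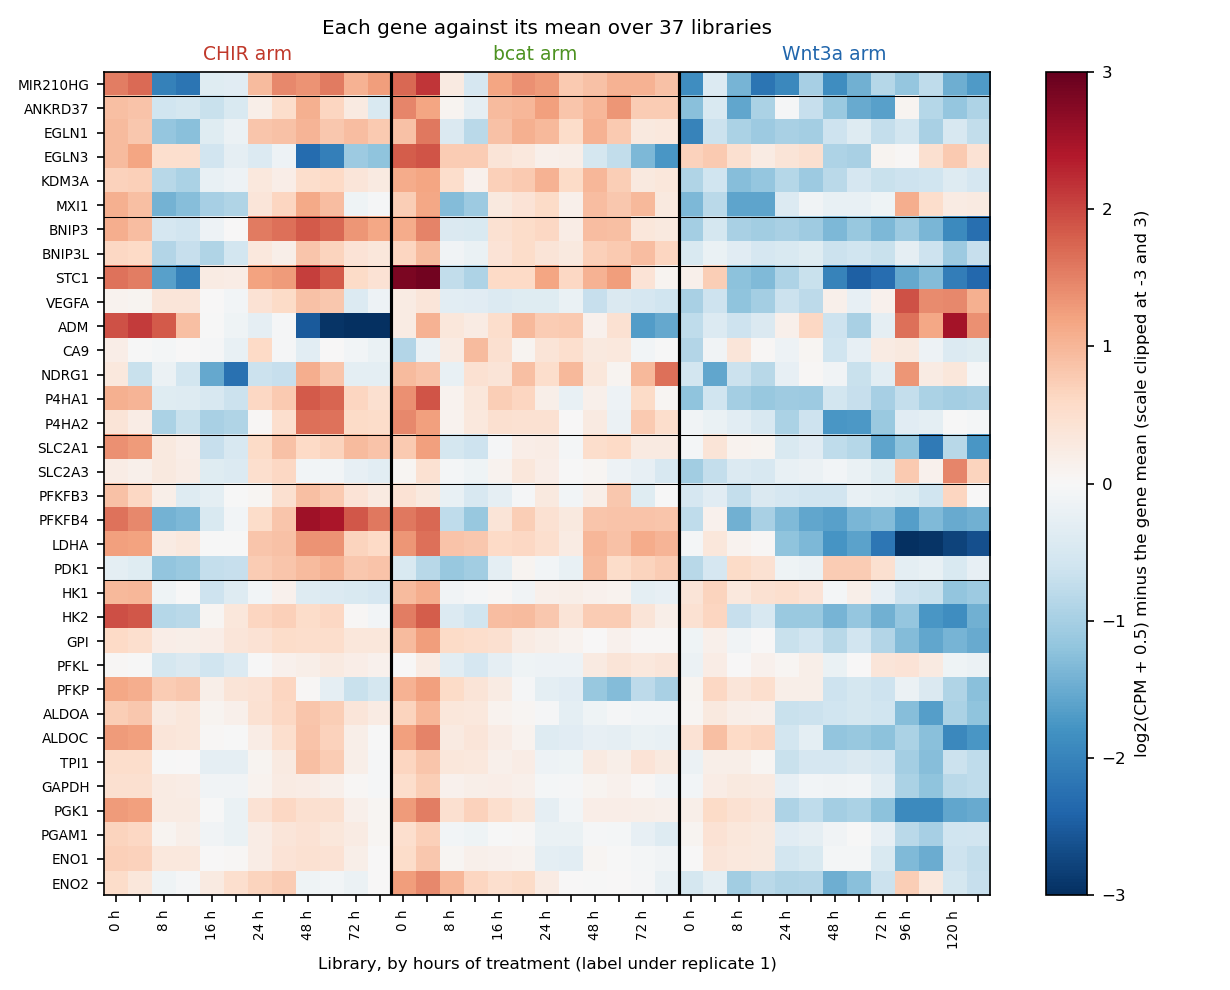
Each row is 1 gene and each column 1 of 37 libraries, coloured by log2(CPM + 0.5) minus the mean of the gene over all libraries. The CHIR and bcat 0 h columns are red, their 8 h columns pale or blue for most genes, and the Wnt3a columns mostly blue from 24 h on, with exceptions such as PDK1 and, late, SLC2A3 and VEGFA.

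PDK1 rose in all 3 arms, at different hours. In the CHIR arm it had 164 and 157 CPM at 0 h, 88.7 and 92.5 at 8 h, 124 and 125 at 16 h and 345 and 361 at 24 h, and the libraries at 8 h were the lowest and those from 24 h on the highest. The change from 0 h was -0.83 ± 0.13 (SE, adjusted p = 1.85e-05) at 8 h and 1.14 ± 0.13 (SE, adjusted p = 1.00e-07) at 24 h. In the bcat arm it had 148 and 114 CPM at 0 h, 92.0 and 97.2 at 8 h and 389.9 and 296 at 48 h, with a change of 1.40 ± 0.13 (SE, adjusted p = 1.82e-09) at 48 h. In the Wnt3a arm it had 113 and 142 CPM at 0 h and 303 and 279 already at 8 h (log2 change 1.17 ± 0.13 SE, adjusted p = 3.96e-07), 184 and 178 at 24 h, 343 and 342 at 48 h and 147 and 169.5 at 120 h. PDK1 at 8 h moved in opposite directions, up with Wnt3a and down in both other arms, and the difference of the changes was -2.00 ± 0.18 (SE, adjusted p = 1.23e-07) for CHIR minus Wnt3a and -1.63 ± 0.19 (SE, adjusted p = 2.47e-06) for bcat minus Wnt3a.

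**Figure D4:**
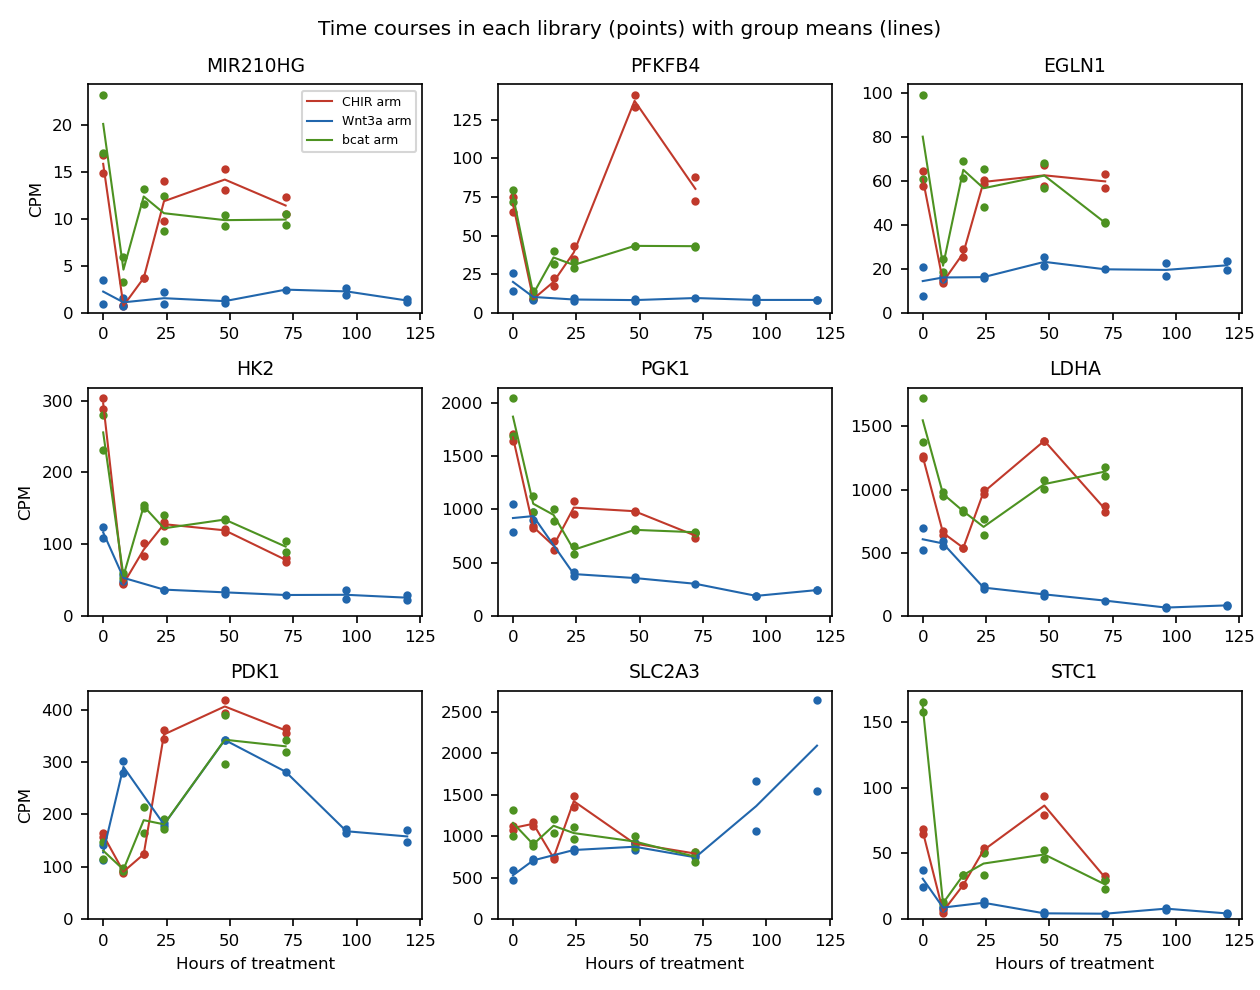
CPM of 9 members in each library (points) and the group means (lines) against hours of treatment, with the vertical axis starting at 0. MIR210HG, PFKFB4, EGLN1 and STC1 start high in the CHIR and bcat arms, are lower at 8 h and higher again at later times, while the Wnt3a line stays low. PDK1 rises in every arm and SLC2A3 rises late in the Wnt3a arm.

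With Wnt3a, 9 of the 13 enzymes were lower at 24 h than at 0 h, and 10 at 48 h, 11 at 72 h and 11 at 96 h. In the libraries labelled 24 h, where AXIN2 lay under its 0 h level, 13 of all 34 members were lower and 4 (PDK1, SLC2A3, NDRG1 and MXI1) higher than at 0 h, where all genes gave 10.9% and 9.32%. The higher count was 1 when Wnt3a 0 h replicate 1 was left out, 1 when Wnt3a 24 h replicate 2 was, and 2 when Wnt3a 24 h replicate 1 was. At 48 h 18 were lower and 4 (PDK1, MXI1, SLC2A3 and VEGFA) higher, where all genes gave 8.56% and 7.58%. At 72 h, with 1 library, 19 were lower and 3 higher, where 7.94% and 8.43% of all genes were, and at 96 h 17 and 7, where 21% and 18.8% were. At 120 h 18 were lower and 6 higher, where all genes gave 15.6% and 12.2%. LDHA had 519 and 693 CPM at 0 h, 590.0 and 556 at 8 h, 234 and 213 at 24 h, 160.1 and 180.0 at 48 h, 61.1 and 70.2 at 96 h and 78.5 and 87.4 at 120 h. The libraries from 24 h on all lay under those of 0 h and 8 h, and the fall at 120 h was 7.33-fold (log2 change -2.87 ± 0.13 SE, adjusted p = 1.41e-16). PGK1 had 371 and 414 CPM at 24 h and 239 and 245 at 120 h (log2 change -1.93 ± 0.12 SE, adjusted p = 1.61e-13), and ALDOC 12.1 and 13.7 at 120 h against 63.7 and 89.4 at 0 h (log2 change -2.60 ± 0.15 SE, adjusted p = 4.92e-14). Of the 13 enzymes 11 were lower at 120 h, with a median of -1.25, and PFKL and ENO2 were not called. STC1, PFKFB4 and HK2 were lower at each of the 6 later times, as were 0.481% of all genes tested. Those 6 tests share the Wnt3a 0 h libraries and are not independent.

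Several members rose late in the same arm. SLC2A3 had 467 and 591 CPM at 0 h, 745 at 72 h in the single library, 1665 and 1061 at 96 h and 2644 and 1542 at 120 h (log2 change 1.98 ± 0.19 SE, adjusted p = 1.38e-08). SLC2A1 fell meanwhile, from 261 and 358 to 152 and 81.8 CPM (log2 change -1.41 ± 0.25 SE, adjusted p = 1.43e-04), so the 2 transporters ended on opposite sides of their 0 h groups. VEGFA had 14.9 and 19.0 CPM at 0 h, 33.3 and 25.05 at 48 h, 114 and 80.6 at 96 h and 82.1 and 62.9 at 120 h (log2 change 2.03 ± 0.17 SE, adjusted p = 1.12e-10). ADM had 12.9 and 16.6 at 0 h, 70.1 and 50.0 at 96 h and 128 and 57.8 at 120 h (log2 change 2.58 ± 0.36 SE, adjusted p = 8.51e-06). Every 96 h and 120 h library of VEGFA and ADM lay above both 0 h libraries, though the 120 h replicates of ADM and SLC2A3 were far apart. NDRG1 had 2.26 and 0.881 CPM at 0 h, 2.92 and 3.67 at 24 h, 9.73 and 4.35 at 96 h and 4.65 and 3.42 at 120 h (log2 change 1.91 ± 0.49 SE, adjusted p = 0.00405), and MXI1 had 6.47 and 9.67 at 0 h and 20.6 and 21.1 at 120 h (log2 change 1.23 ± 0.22 SE, adjusted p = 7.18e-05). PFKFB3, another fructose 2,6-bisphosphate enzyme, was the sixth member called higher at 120 h. MIR210HG had 1.44 and 1.14 CPM at 120 h and EGLN1 23.6 and 19.5, and EGLN1 was called at no hour of this arm.

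**Figure D5:**
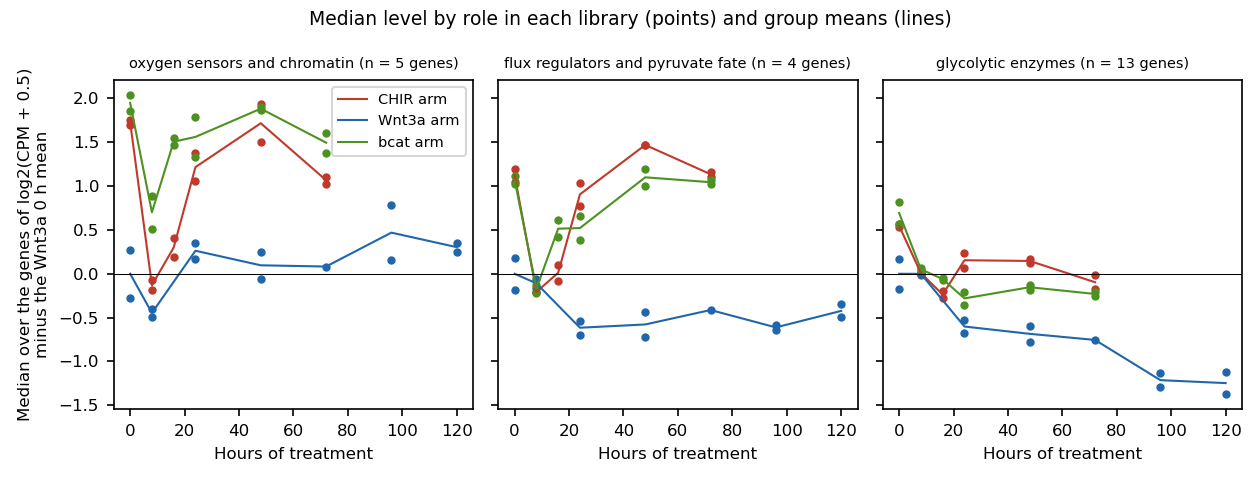
Median over the genes of a role of log2(CPM + 0.5) minus the Wnt3a 0 h mean, in each library (points) with group means (lines). The Wnt3a medians of the enzymes go below 0 from 24 h on. The CHIR and bcat medians of the group of oxygen sensors and chromatin regulators start above 1.5, drop at 8 h and return above 1 by 24 h.

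At the same hour after 8 h, most members were higher in the CHIR arm than in the Wnt3a arm. At 48 h 28 of 34 were higher and 3 (ADM, EGLN3 and HK1) lower, where all genes gave 17.7% and 16.6%. STC1 had 93.4 and 79.2 CPM in CHIR and 5.11 and 3.63 in Wnt3a (log2 difference 4.38 ± 0.22 SE, adjusted p = 6.99e-16). PFKFB4 had 141 and 133 CPM in CHIR and 7.40 and 8.88 in Wnt3a (log2 difference 4.05 ± 0.22 SE, adjusted p = 3.98e-15), and MIR210HG 13.1 and 15.3 against 0.979 and 1.48 (log2 difference 3.43 ± 0.38 SE, adjusted p = 2.26e-08). For bcat against Wnt3a at 48 h 23 were higher and 2 lower, where all genes gave 15.2% and 13.6%. The arms had also differed at 0 h. As changes from each arm's own 0 h, CHIR minus Wnt3a at 48 h gave 10 members higher and 4 lower, where all genes gave 6.75% and 9.35%.

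The same test of the difference between changes was read at the other hours. CHIR minus bcat at 16 h gave 5 members lower and 2 higher, where all genes gave 1.93% and 0.848%, with MXI1 at -1.33 and STC1 at 0.91 (adjusted p = 0.0102 and 0.045). At 24 h it gave 1 member lower and 15 higher, where all genes gave 3.3% and 1.65%. STC1 (1.60), ENO2 (1.51) and BNIP3 (1.49) differed most upward at 24 h, and ADM was the member that differed downward, by -2.20 ± 0.47 (SE, adjusted p = 0.0075). At 72 h it gave 1 member lower and 8 higher, where all genes gave 4% and 3.21%, again with STC1 highest (1.54) and ADM below 0 (-3.24).

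Against the Wnt3a changes, CHIR at 24 h gave 5 members lower and 8 higher, where all genes gave 5.56% and 4.39%. The difference was 1.08 ± 0.17 (SE, adjusted p = 4.29e-05) for LDHA and -3.11 ± 0.48 (SE, adjusted p = 1.67e-04) for ADM. At 72 h, with the single Wnt3a library, CHIR gave 6 members lower and 8 higher, where all genes gave 5.26% and 3.73%, with STC1 at 1.91 and LDHA at 1.76. For bcat minus Wnt3a at 24 h 9 members were lower, where 5.95% of all genes were, and EGLN3 led them with -1.42 ± 0.25 (SE, adjusted p = 1.49e-04). At 48 h bcat gave 4 members lower and 3 higher, where all genes gave 5.29% and 6.84%, and at 72 h 10 members lower and 1 higher, where all genes gave 6.09% and 5.78%, the higher one being LDHA with 1.90 ± 0.19 (SE, adjusted p = 2.37e-08). These comparisons share the 0 h libraries of each arm across the hours.

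Other genes of the pathway were read from separate lists. Of 14 tested genes that regulate HIF, 2 were lower and 2 higher at CHIR 8 h, where 11.7% and 9.2% of all genes were, and the median change was -0.01. At bcat 8 h 0 were lower and 3 higher, where 8.01% and 10.7% of all genes were, with a median of 0.23. HIF1A, the oxygen-labile subunit that is controlled largely at the protein level, had 247 and 245 CPM at CHIR 0 h, 236 and 284 at bcat 0 h and 224 and 317 at Wnt3a 0 h. Its groups overlapped, and its 8 h changes of -0.14, -0.12 and -0.01 in CHIR, bcat and Wnt3a were not called. EPAS1 (HIF2A) had 0.453 and 1.07, 0.588 and 1.39 and 0.647 and 0.382 CPM at 0 h. ARNT, the stable partner, had 43.1 and 43.7 CPM at CHIR 0 h, 40.9 and 44.4 at bcat 0 h and 20.4 and 32.1 at Wnt3a 0 h, and it fell to 27.2 and 31.9 at CHIR 8 h (log2 change -0.56 ± 0.14 SE, adjusted p = 0.00429).

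Another 34 known HIF targets outside the set, also listed with earlier results known, were counted in the same way, against the same shares of all genes at 8 h. Then 24 fell and 2 rose in the CHIR arm (median -0.94), 24 fell and 1 rose in the bcat arm (median -0.93), and 2 fell and 1 rose with Wnt3a (median -0.10). DDIT4, an inhibitor of mTORC1, went from 219.5 and 206 to 45.3 and 35.2 CPM with CHIR99021, from 318 and 377 to 41.6 and 30.4 in bcat and from 23.3 and 40.9 to 8.33 and 6.72 with Wnt3a (-2.40, -3.26 and -2.22 on the log2 scale, adjusted p = 2.80e-06, 1.08e-07 and 1.10e-04). Its groups were apart in all 3 arms. At 0 h 21 of these 34 were higher in CHIR and 24 in bcat than in Wnt3a, with medians of 0.69 and 1.14.

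Of 22 tested glycolysis genes that were not members, 6 fell and 2 rose at CHIR 8 h, and 4 fell and 3 rose at bcat 8 h, where all genes gave 11.7% and 9.2%, then 8.01% and 10.7%. With at least 10 CPM required in 2 libraries, 19.8% of genes fell at CHIR 8 h and 19.9% at bcat 8 h. SLC16A3, the lactate exporter MCT4, went from 39.1 and 34.3 CPM at CHIR 0 h to 4.38 and 4.84 at 8 h and 329 and 348 at 48 h, and from 78.5 and 102 to 12.9 and 8.06 in the bcat arm. The 8 h libraries of both arms lay far under their 0 h groups, and the changes were -2.996 and -3.06 (adjusted p = 3.82e-10 and 2.06e-10). PKM, pyruvate kinase, went from 1454 and 1453 to 996 and 962 CPM with CHIR99021 (log2 change -0.57 ± 0.11 SE, adjusted p = 3.12e-04) and from 845 and 1082 to 960.4 and 991 with Wnt3a, where it was not called.

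The labels were checked against markers. At 0 h the summed CPM of 8 pluripotency genes was 5164 to 5264 in CHIR, 4759 to 5365 in bcat and 5425 to 6524 in Wnt3a, and that of 8 primitive streak and mesoderm genes was 1.81 to 2.46, 1.47 to 2.46 and 1.94 to 2.10. At 8 h AXIN2 was higher in every arm (3.30, 2.68 and 1.58), and the streak and mesoderm genes summed to 68.1 to 89.8, 23.6 to 34.1 and 89.2 to 96.7 CPM. At Wnt3a 24 h it was lower than at 0 h (log2 change -0.71 ± 0.21 SE, adjusted p = 0.017), and at 96 h it had 17.96 and 16.69 CPM and was not called. The 5 genes of a WNT response list summed to 562 to 687 CPM at Wnt3a 0 h, 782 to 797 at 8 h, 459 to 463 at 24 h and 477 to 522 at 96 h. AXIN2 was a small part of that sum, which was not split by gene here, so it does not give the response of each gene. In the bcat arm, where beta-catenin was induced, the sum was 687 to 783 CPM at 0 h and 2964 to 3246 at 8 h. The streak and mesoderm genes summed to 19.0 to 21.4 CPM at Wnt3a 24 h and 634 to 686 at 48 h. At Wnt3a 120 h, beside the fall of the enzymes and the rise of SLC2A3, VEGFA and ADM, all 6 definitive endoderm markers were higher. Over all genes 12.2% were called higher at that hour. The markers summed to 157 to 248 CPM, against 1.22 to 2.26 at 0 h. Their sum was largest at 48 h, at 533 to 687 CPM, and was 245 to 358 at 96 h. At CHIR 72 h and bcat 72 h the streak and mesoderm genes summed to 609 to 670.1 and 217 to 259 CPM. Their part in the results at those hours was not tested.

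Markers of other cells were read beside the fall at 8 h. The endothelial and blood list (10 measured genes) summed to 166 to 167 CPM at CHIR 0 h and 71.0 to 75.03 at 8 h, to 203 to 264 and 82.6 to 101 in bcat, and to 127 to 147 and 110.4 to 121 with Wnt3a. Most of this sum was KDR, a VEGF receptor, at 159 to 159.8 CPM at CHIR 0 h and 195 to 258 at bcat 0 h, and its 8 h changes were -1.33 and -1.48 (adjusted p = 1.57e-04 and 7.21e-05). PECAM1, CDH5 and PTPRC, which define endothelial and blood cells, stayed at or under 2.04 CPM in all 0 h and 8 h libraries, and CDH5 and PTPRC had 0 counts at bcat 0 h. The neural list (6 genes) went from 41.7 to 42.8 to 20.2 to 34.1 CPM in CHIR and from 32.3 to 36.2 to 21.2 to 21.3 in bcat, and the fibroblast list (7 genes) from 126 to 130.5 to 122 to 123 and from 171 to 182 to 158 to 198. The part of these lists in the fall was not tested.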

How the data were processed

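The deposited table holds the authors' estimated counts, named raw in its title. The submitters' processing notes name kallisto 0.43.0. Build, annotation and gene summing: not given in the sources used here. The lowest values of each deposited column had 1 common step (0.265 to 6.58), taken as a constant on the authors' estimated counts and divided out, leaving 56.9% to 81.3% of values up to 20 counts within 0.1 of a whole number, and the counts were rounded. TruSeq Stranded Total RNA libraries were used, per the labels' protocols.

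All 37 libraries entered 1 fit of group means in edgeR 4.0.16 (R 4.3.3): filterByExpr, TMM, trended dispersions, robust quasi-likelihood tests, 18 residual degrees of freedom and 24304 genes. Each comparison's p-values were adjusted on their own (Benjamini-Hochberg), with calls under 0.05. The lone Wnt3a 72 h library is assumed to vary like the others. CPM are TMM-scaled, and list changes are fitted log2 values with standard errors. DESeq2 1.42.0 was an alternative. The scripts were tested on simulated data. RefSeq supplied promoter and miRNA sequences (GRCh38.p14), and GENCODE 29 transcript lengths by symbol.

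The members and lists were chosen with earlier results of these data known. Named were the called members with the largest changes (up to 6 per direction), MIR210HG, STC1, at least 1 per role, and up to 4 genes per other list with HIF1A, EPAS1, ARNT, PKM and TXNIP. PFKL, PFKP, SLC2A1, CA9 and AXIN2 were added after their values were seen. Same-numbered replicates were not treated as pairs.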

Additional observations from a re-analysis of the deposited data

Results flagged for a closer look

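Differences between arms in the change from their own 0 h cultures are listed here because the test of the difference itself passed. In CHIR minus Wnt3a, 19 members differed downward at 8 h, 5 downward and 8 upward at 24 h, 4 downward and 10 upward at 48 h, and 6 downward and 8 upward at 72 h, where the Wnt3a group had 1 library. Over all genes, 3.28% differed downward at 8 h. The shares downward and upward were 5.56% and 4.39% at 24 h, 9.35% and 6.75% at 48 h, and 5.26% and 3.73% at 72 h. The 8 h differences were -2.84 for MIR210HG, -2.02 for EGLN1 and -2.00 for PDK1 on the log2 scale. In bcat minus Wnt3a, 19 members differed downward at 8 h, 9 downward at 24 h, 4 downward and 3 upward at 48 h, and 10 downward and 1 upward at 72 h. For this pair 2.62% of all genes differed downward at 8 h and 5.95% at 24 h. Downward and upward shares were 5.29% and 6.84% at 48 h, and 6.09% and 5.78% at 72 h. The 8 h differences were -1.83 for STC1, -1.81 for EGLN1 and -1.63 for PDK1. In CHIR minus bcat, 2 differed downward and 1 upward at 8 h, 5 and 2 at 16 h, 1 and 15 at 24 h, 3 and 15 at 48 h, and 1 and 8 at 72 h. All genes gave 2.08% downward and 0.617% upward at 8 h, 1.93% and 0.848% at 16 h, and 3.3% and 1.65% at 24 h. They gave 10.6% and 5.97% at 48 h, and 4% and 3.21% at 72 h. The 8 h differences were -2.31 for MIR210HG, -0.81 for KDM3A and 0.92 for VEGFA. These 8 h calls were fragile to leaving out 1 library, as described above. Each of these differences also rests on the 0 h groups, where 29 and 31 of 34 members were higher in CHIR and bcat than in Wnt3a.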

How the results depend on the processing

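Counts of members called were recomputed under 10 alternatives and without each of 24 libraries in turn, all with edgeR except where DESeq2 is named. The setting with 4 libraries left out was chosen after seeing the data. A fit with the replicate number as a block moved no count past 1.5 times (27 members lower at CHIR 8 h), and same-numbered replicates did not deviate together (r from -0.0566 to 0.0457 over 21 pairs), so the numbers were not used as pairs. DESeq2 size factors in place of TMM shift all log2 values of a comparison by -0.10 to 0.13. Single changes were followed for the 116 member changes given with full statistics. These were picked as the called members with the largest changes, with MIR210HG and STC1. Called members with smaller changes were left out, so the tallies below do not measure how stable the counts of members are. Among the 116, these 10 alternatives left 1133 values with the same call and direction, 20 lost the call, 2 gained it and 0 reversed. Without 1 library 469 were the same, 56 lost the call, 2 gained it and 5 reversed.

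With only the libraries of the arms compared in the fit, counts moved to 1 higher at CHIR 8 h, 5 higher at CHIR 24 h, 2 higher at CHIR 72 h, 0 higher at bcat 24 h, 3 lower at Wnt3a 8 h and 11 lower for CHIR 0 h against bcat 0 h. With at least 10 CPM required they moved to 5 higher at CHIR 24 h, 12 lower for CHIR 0 h against bcat 0 h, 1 higher for CHIR minus Wnt3a at 8 h and 3 higher for CHIR minus bcat at 8 h. DESeq2 gave 4, 12, 1 and 4 for those same counts. DESeq2 size factors gave 11 lower for CHIR 0 h against bcat 0 h and 1 higher for CHIR minus Wnt3a at 8 h, and adjustment over all comparisons gave 1 for the latter. The counts as deposited gave 1 higher at bcat 8 h. Without the 4 libraries in doubt there were 2 higher at Wnt3a 24 h and 1 lower for CHIR minus bcat at 8 h. The cause was not tested.

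Leaving out 1 library gave 6 to 11 lower and 1 to 2 higher at CHIR 24 h, 0 to 1 higher at bcat 24 h, 2 to 6 lower at Wnt3a 8 h, 1 to 3 higher at Wnt3a 24 h, 4 to 8 lower and 0 to 1 higher for CHIR 0 h against bcat 0 h, and 0 to 2 lower and 0 to 1 higher for CHIR minus bcat at 8 h. The counts of 27, 30, 29 and 31 on which the report turns ran from 23 to 25 (CHIR 8 h), 24 to 28 (bcat 8 h), 20 to 28 (CHIR 0 h against Wnt3a 0 h) and 27 to 30 (bcat 0 h against Wnt3a 0 h). Without Wnt3a 0 h replicate 2 the change of MIR210HG reversed to 0.065 at 8 h (lowest -2.14, without Wnt3a 8 h replicate 1), 0.73 at 24 h (lowest -1.72) and 0.41 at 120 h (lowest -1.44). Its change in bcat minus Wnt3a at 8 h reversed to 0.060 without Wnt3a 8 h replicate 1 (lowest -2.15), and that of STC1 in CHIR minus bcat to -0.023 without CHIR 8 h replicate 1 (highest 0.42). A group left with 1 library is assumed to vary like the others. Depth limits the scarce members, CA9, ANKRD37, NDRG1 and MIR210HG, most of all in Wnt3a 0 h replicate 1.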

Other observations

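Of 7 genes of the pentose phosphate pathway, which makes NADPH and ribose, 1 was lower at CHIR 8 h and 2 at bcat 8 h. Over all genes 11.7% and 8.01% were lower. At Wnt3a 8 h 0 were lower, where 1.18% of all genes were. At Wnt3a 120 h 5 were lower, where 15.6% of all genes were. These were led by TKT (log2 change -1.71 ± 0.14 SE, adjusted p = 8.76e-11) and TALDO1 (log2 change -1.37 ± 0.12 SE, adjusted p = 5.49e-10), enzymes of its nonoxidative branch. TKT was also lower at CHIR 72 h (-1.50) and bcat 72 h (-1.41). Of 17 genes of the tricarboxylic acid cycle 5 were lower and 2 higher at CHIR 8 h, where all genes gave 11.7% and 9.2%. At bcat 8 h 3 were lower and 1 higher, where all genes gave 8.01% and 10.7%. At Wnt3a 120 h 10 were lower, where 15.6% of all genes were. At bcat 72 h 7 were lower and 1 higher, where all genes gave 13.6% and 13.6%. At CHIR 72 h 1 was lower and 3 higher, where all genes gave 13.4% and 11.5%. The pyruvate dehydrogenase kinases PDK4 (log2 change 3.67 ± 1.19 SE, adjusted p = 0.0227) and PDK2 (log2 change 1.15 ± 0.31 SE, adjusted p = 0.00553) were higher at Wnt3a 120 h. PDK1 was not called at that hour. MPC1, a subunit of the mitochondrial pyruvate carrier, was lower at Wnt3a 120 h (log2 change -1.58 ± 0.26 SE, adjusted p = 2.71e-05).

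TXNIP, a glucose-responsive inhibitor of glucose uptake, had 212 and 215 CPM at bcat 0 h, 43.4 and 47.5 in the CHIR and 17.5 and 23.7 in the Wnt3a cultures of that hour, so the bcat libraries stood far above both others. At 8 h it had 56.8 and 54.7 CPM in bcat (log2 change -1.94 ± 0.23 SE, adjusted p = 1.33e-06) and 68.0 and 49.7 in CHIR, where it was not called, and at CHIR 48 h it had 145 and 152 (log2 change 1.70 ± 0.23 SE, adjusted p = 1.41e-06).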
